A study of Mus musculus with 9 samples.

Results

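The Bpif genes encode proteins with a BPI fold (BPI, bactericidal/permeability-increasing protein), many of them secreted. The members were taken by symbol: Bpifa1, Bpifa2, Bpifb1, Bpifb2, Bpifb3, Bpifb4, Bpifb5, Bpifb6, Bpifb9a and Bpifb9b. All 10 were among the 21930 genes of the deposited table, and 9 of them passed the filter on low values, a level of at least 1 in at least 3 libraries, while Bpifb2 did not. Levels are in FPKM, a fragment count corrected for transcript length and library size, which allows comparison between genes. The samples were 9 poly(A) RNA libraries of nasal mucosa from mice of WT genotype, 3 in each of 3 groups. In the papain+MSC-Exos group, 20 µg of papain, a plant cysteine protease, was put into the nose in 20 µl of PBS on days 0 to 2 and on days 7 to 11, and MSC-Exos, exosomes shed by mesenchymal stromal cells, were given on days 7 to 11. The papain group, named eCRS in the labels, had papain alone, and the protocol, which is written for all samples together, names PBS as the alternative to MSC-Exos. The control group is labelled as having no treatment, and the labels do not tell whether it was given PBS. Tissue was taken on day 12. Strain, age and sex of the mice, and the source of the stromal cells, were not given in the sources used here. Nothing in the labels tells if the libraries of a group are different animals, and the p-values are thus based on a spread between libraries that could be technical.

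Proteins of this family share an elongated fold with BPI, the neutrophil protein that binds bacterial lipopolysaccharide, and with the plasma proteins LBP and PLTP, which carry lipopolysaccharide and phospholipid. The short forms (BPIFA) hold a single copy of the fold domain, and the long forms (BPIFB) hold a pair of them. Many of them are made by the glands and surface epithelium of the mouth, nose and upper airways and are released into saliva and airway lining fluid. Bpifa1 (SPLUNC1) is a surface-active protein of airway secretions that acts in defence against bacteria and limits sodium uptake through the epithelial sodium channel. Bpifb1 (LPLUNC1) is a product of airway goblet cells and submucosal glands. Bpifa2 is the parotid secretory protein, Psp, of mouse saliva. Relatives of Bpifb3 (Rya3) and Bpifb4 were first cloned from the olfactory mucosa of the rat.

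In these libraries Bpifb1 was higher than in control in the papain+MSC-Exos group, by 11.7-fold of the mean FPKM as deposited and 5.77-fold after scaling, and in the papain group, by 5.02-fold and 4.25-fold, and both changes passed the test on both scales. The near-identical pair Bpifb9a and Bpifb9b, among the most abundant transcripts of the tissue, were lower in the papain+MSC-Exos group than in control, to 0.672 and 0.642 of the control mean as deposited and 0.357 and 0.340 after scaling, a fall that did not hold under every scaling. The genes Bpifb3, Bpifb4, Bpifb5 and Bpifb6 were higher in papain+MSC-Exos than in papain libraries as deposited and did not pass after scaling. In that deposited comparison 63.0% of all tested genes were called higher, so these calls do not set the members apart. Bpifa1 passed in the papain+MSC-Exos group against control as deposited, where 84.3% of all tested genes were called higher, and not after scaling.

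All 10 members lie on the plus strand of chromosome 2, between positions 153875045 and 154320646 of GRCm38 (GENCODE M21 annotation; the same assembly as mm10, the build named in the submitters' processing notes). This stretch of 446 kb holds 16 annotated genes, of which 13 were in the table. From the start of the stretch these are Bpifb2, Bpifb6, Bpifb3, Bpifb4, Bpifa6, Bpifa2, Bpifa3, Bpifa1, Bpifa5, Bpifb1, Bpifb5, Bpifb9a and Bpifb9b. Levels were not graded along the cluster. Bpifb9a and Bpifb9b at its far end were the highest, Bpifa1 lay between Bpifa3 and Bpifa5, which were near 0, and the neighbours Bpifb6, Bpifb3 and Bpifb4 were within a few-fold of each other.

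**Figure D1:**
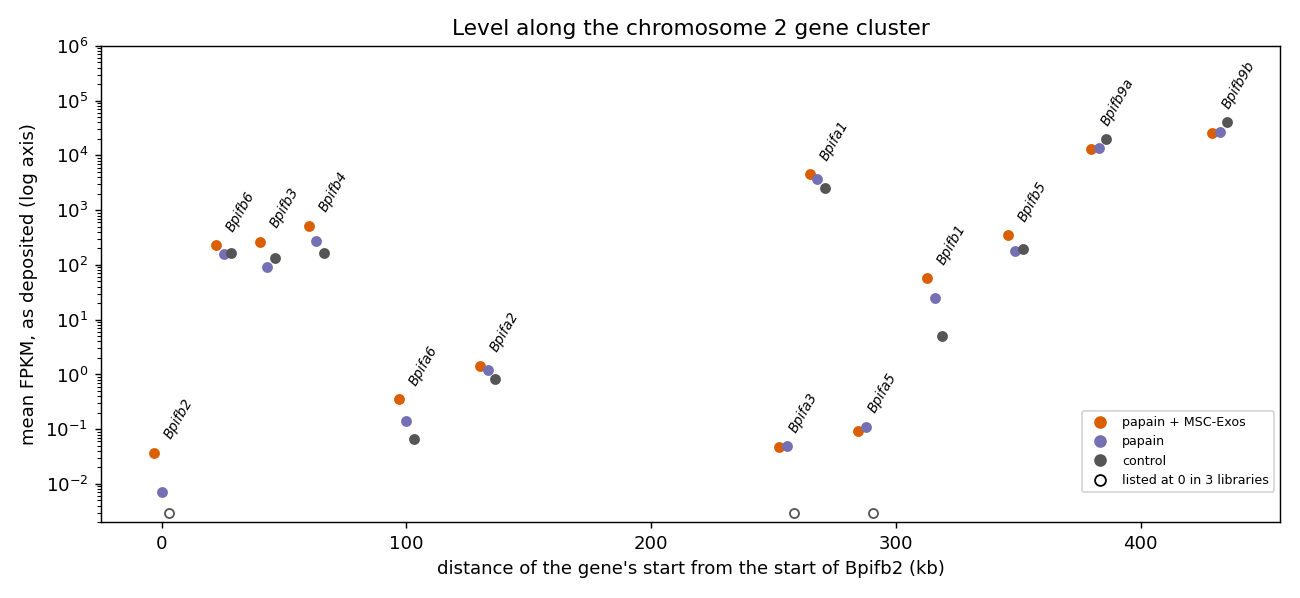
Mean deposited FPKM (log axis, n = 3 libraries a group) of the 13 genes of the chromosome 2 cluster against the distance of each gene's start from the start of Bpifb2 in kb, with the groups drawn slightly apart for legibility. The pair Bpifb9a and Bpifb9b has group means from 13385 to 40569 FPKM, and Bpifb2, Bpifa3 and Bpifa5 are listed at 0 in the control libraries (open circles).

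The 2 promoters of the pair are printed because these genes moved together and their separate levels rest on few differing bases. Capitals mark the bases that differ between the 2 stretches, which run from the start of the RefSeq promoter entry (GRCm38.p6) to the last base before the GENCODE gene start.
Bpifb9a, chr2:154257629-154257853, plus strand: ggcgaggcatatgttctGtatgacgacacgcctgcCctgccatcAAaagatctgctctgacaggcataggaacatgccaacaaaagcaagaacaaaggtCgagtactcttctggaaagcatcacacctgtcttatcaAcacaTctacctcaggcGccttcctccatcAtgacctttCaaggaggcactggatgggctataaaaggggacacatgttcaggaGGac
Bpifb9b, chr2:154306994-154307226, plus strand: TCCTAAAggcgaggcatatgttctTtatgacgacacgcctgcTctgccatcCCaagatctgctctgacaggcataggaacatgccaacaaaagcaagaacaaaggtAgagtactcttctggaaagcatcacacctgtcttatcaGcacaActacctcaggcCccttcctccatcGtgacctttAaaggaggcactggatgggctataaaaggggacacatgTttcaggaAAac
The stretches were identical in 213 of 233 aligned columns (91.4%), with 12 substituted bases and 8 gap columns, most of which are the extra bases at the left end of the second stretch. Over the coding sequence (each 1773 bases) Bpifb9a and Bpifb9b matched in 1760 bases, or 99.3%. The next most alike of the 45 pairs of members, Bpifb2 and Bpifb3, matched in 50.6% of columns, and the least alike, Bpifa2 and Bpifb4, in 27.7%. Of all windows of 50 bases in the main Bpifb9a transcript, 71.4% occur letter for letter in that of Bpifb9b, and 53.9% of windows of 100 bases do. How the authors' quantification divided shared reads is not given in the sources used here, so the split between Bpifb9a and Bpifb9b is uncertain, and their sum is given beside each.

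The TATAAA hexamer stood at position -29 from the GENCODE start of Bpifb9a and -30 from that of Bpifb9b, and in the Bpifa1 promoter at -29. It occurred in 13.6% of the 32851 RefSeq mouse promoters of 300 bases (250 before and 50 after the start), searched on both strands like the other motifs. The promoters of Bpifa1 and Bpifb1 are printed as those of the airway-surface product Bpifa1 and of the member called in both comparisons with control on both scales, with motif matches in capitals. RefSeq gives Bpifb1 a pair of starts, and the second stretch ends before an annotated exon.
Bpifa1, chr2:154142630-154142879, plus strand: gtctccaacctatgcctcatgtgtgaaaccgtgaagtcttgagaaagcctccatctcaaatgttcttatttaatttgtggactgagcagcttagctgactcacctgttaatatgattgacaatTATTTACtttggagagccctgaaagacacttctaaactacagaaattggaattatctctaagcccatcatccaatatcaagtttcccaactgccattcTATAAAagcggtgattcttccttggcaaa
Bpifb1, chr2:154190568-154190817, plus strand: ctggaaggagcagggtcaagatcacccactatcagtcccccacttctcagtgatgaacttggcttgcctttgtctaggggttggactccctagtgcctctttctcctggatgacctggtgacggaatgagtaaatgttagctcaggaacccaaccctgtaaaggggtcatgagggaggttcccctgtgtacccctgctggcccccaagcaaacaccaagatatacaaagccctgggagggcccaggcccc
Bpifb1, chr2:154200130-154200378, plus strand: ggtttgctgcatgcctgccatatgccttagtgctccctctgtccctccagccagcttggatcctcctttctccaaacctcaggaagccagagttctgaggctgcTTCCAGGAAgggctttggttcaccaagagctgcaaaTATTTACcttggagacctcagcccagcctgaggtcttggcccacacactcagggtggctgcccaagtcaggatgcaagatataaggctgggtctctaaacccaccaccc
The letters TATTTAC, a form bound by FOXA factors, were found in the Bpifa1 stretch and in the second Bpifb1 stretch, and in 3.04% of all promoters. The letters TTCNNNGAA, the spacing of STAT sites, were found in the second Bpifb1 stretch and in 8.30% of all promoters. Neither TTC and GAA with 4 bases between, the STAT6 spacing (6.95% of all promoters), nor TGTTTAC (3.65%) occurred in any of the 12 member promoters, and the matches do not overlap each other. The motifs were picked after the sequences had been read, and a match describes letters only.

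The libraries were about 15.3 to 25.3 M fragments deep (M, mega), by a rough estimate from low values within a search window set beforehand. Markers of the labelled tissue were present, with mean levels over the 9 libraries of 303 FPKM for Omp of olfactory neurons, 516 FPKM for Cyp2g1 of sustentacular cells and 35.3 FPKM for Foxj1 of ciliated cells. Of the 7 salivary gland markers, Prol1 and Smgc were listed at 0 in every library and the rest were not. Of these markers 3 had a mean of at least 1 FPKM, and the list summed to 6.96 to 24.3 FPKM per library. The peroxidase Lpo and the club cell gene Scgb1a1 had means of 0.156 and 0.0337 FPKM. The scale of the libraries differed between groups: over all genes tested, the log2 change had a median of 0.76 in papain+MSC-Exos against control, 0.56 in papain+MSC-Exos against papain and 0.19 in papain against control. Test results are therefore given as deposited and after median-of-ratios scaling, which divides a library by 1.18 to 1.75 in the papain+MSC-Exos group, 0.710 to 1.07 in the papain group and 0.763 to 0.765 in control, and moves those medians to 0.00915, -0.00587 and -0.00399. In tissue libraries fewer cells of a type and less RNA per cell cannot be told apart. The 3 comparisons share libraries, so their values stand side by side and are not independent.

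The mean levels over the 9 libraries put Bpifb9b at rank 6, Bpifb9a at rank 10 and Bpifa1 at rank 19 among all genes of the table. The pair held 84.1% to 95.7% of the summed FPKM of the 10 members in each library. Bpifb9b exceeded Bpifb9a in all 9 libraries, Bpifb9a exceeded Bpifa1 in all 9, and Bpifa1 exceeded the next 4 genes in all 9. The levels of Bpifb4 (143 to 637 FPKM), Bpifb5 (140.4 to 395), Bpifb6 (89.9 to 284) and Bpifb3 (29.1 to 347) overlapped over the 9 libraries. Within a library Bpifb4 exceeded Bpifb3 in all 9, while the other pairs of these 4 genes changed order between libraries. Bpifb1 ranged from 4.41 to 87.7 FPKM, the widest span in fold among the tested members, and overlapped Bpifb3 at its upper end. Bpifa2 stayed between 0.662 and 1.87 FPKM, and Bpifb2 reached at most 0.0411 FPKM.

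**Figure D2:**
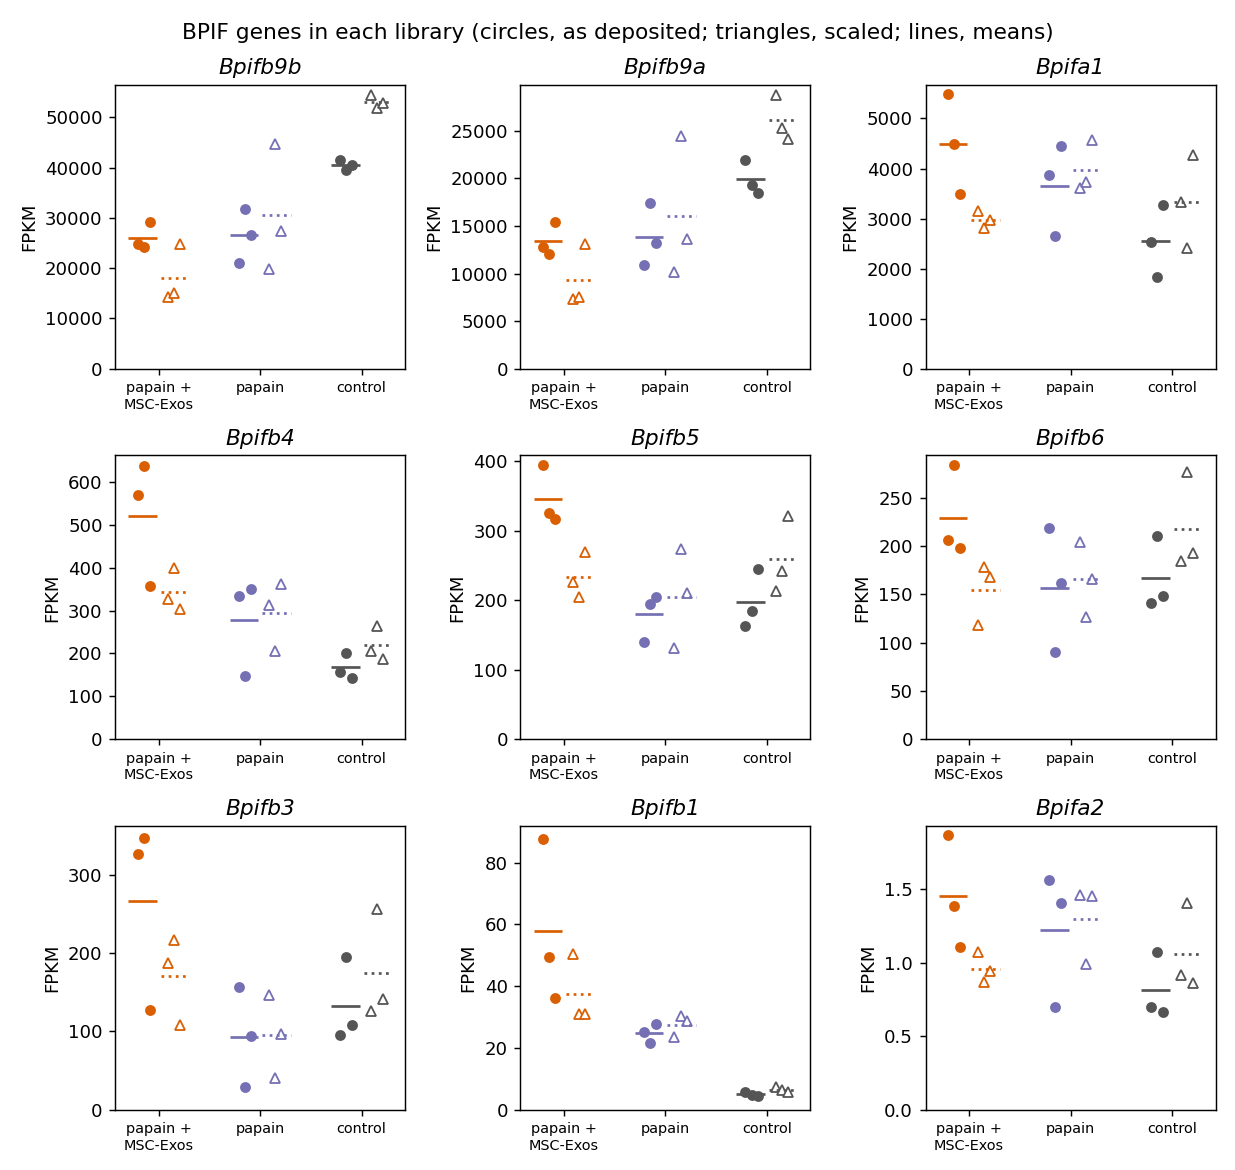
FPKM of the 9 members that passed the filter, in each library of the papain+MSC-Exos, papain and control groups (n = 3 each), as deposited (circles, with solid lines for means) and scaled (triangles, with dotted lines for means). Bpifb1 separates the groups on both scales, though narrowly between papain+MSC-Exos and papain after scaling (from 30.9 and up to 30.5 FPKM), while the other panels overlap between at least a pair of groups on either scale.

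Bpifb1 (chromosome 2, 154190818 to 154220369) had 87.7, 49.5 and 36.3 FPKM in the papain+MSC-Exos libraries, 25.0, 21.7 and 27.8 FPKM in the papain libraries, and 5.67, 4.77 and 4.41 FPKM in the control libraries. The groups did not overlap, and the papain+MSC-Exos libraries were the most spread. Group means were 57.8 ± 26.7, 24.8 ± 3.10 and 4.95 ± 0.649 FPKM (SD, n = 3 each). After scaling they were 37.4 ± 11.1 FPKM in papain+MSC-Exos, 27.5 ± 3.68 in papain and 6.48 ± 0.850 in control libraries.

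Bpifb1 had, in papain against control, a log2 change of 2.12 ± 0.24 (SE; limma with Benjamini-Hochberg adjustment, adjusted p = 1.20e-05), and of 1.93 ± 0.18 after scaling (adjusted p = 3.28e-04). It was the 1 member called of 9 on each scale, where 3.52% of all tested genes were called as deposited (3.01% higher and 0.518% lower) and 9.92% after scaling (5.77% higher and 4.15% lower). For papain+MSC-Exos against control its log2 change was 3.22 ± 0.24 as deposited (adjusted p = 2.85e-08) and 2.33 ± 0.18 scaled (adjusted p = 2.60e-04). Bpifb1 passed in both comparisons under all alternatives tried on either scale, with log2 changes from 1.86 to 2.30 for papain and from 2.09 to 3.73 for papain+MSC-Exos. Between papain+MSC-Exos and papain the log2 change was 1.10 ± 0.24 as deposited (adjusted p = 0.00171) and 0.40 ± 0.18 scaled (adjusted p = 0.127), so the difference between these 2 groups passed on the deposited scale and not after scaling, nor after quantile normalization (0.59, adjusted p = 0.0554).

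Marker sums of other cells are given beside Bpifb1 on both scales. All 8 goblet and club cell markers were in the table, 6 of them at a mean of at least 1 FPKM, and they summed to 291 to 329 FPKM in papain+MSC-Exos, 294 to 479 in papain and 136 to 146 in control libraries. Scaled, the goblet and club sums were 182 to 247, 415 to 493 and 178 to 191 FPKM in the same groups, so that the sums were highest in papain. The listed genes did not all follow the sum. In scaled papain+MSC-Exos against papain Agr2 and Itln1 were lower, at -1.23 and -0.74 (limma, adjusted p = 0.00147 and 0.0263). Muc5ac was not called, at 0.11 (adjusted p = 0.841), and neither was Bpifb1, at 0.40. All 6 leukocyte markers were in the table, 3 of them at a mean of at least 1 FPKM, and summed to 37.6 to 41.5, 17.6 to 44.2 and 9.97 to 12.3 FPKM in papain+MSC-Exos, papain and control (scaled 21.5 to 33.5, 22.2 to 45.5 and 13.0 to 16.1). Basal cell markers (4 of 4) summed to 106 to 126 FPKM in papain+MSC-Exos, 77.8 to 90.9 in papain and 34.9 to 59.7 in control libraries (scaled 66.1 to 90.3, 80.1 to 120.8 and 45.7 to 78.1). None of these lists had a gene at 0 in all libraries, and the part of these cells in the Bpifb1 result was not tested. Ciliated cell markers (6 of 7 in the table) summed to 149.9 to 191 FPKM in papain+MSC-Exos, 89.3 to 119.9 in papain and 64.1 to 82.3 in control libraries, and overlapped between all groups after scaling (93.9 to 147, 83.6 to 129 and 84.1 to 108). Sustentacular markers (5 of 5) summed to 2723.5 to 3862, 1821 to 3345 and 1981 to 2212 FPKM in these groups, and the scaled order of papain+MSC-Exos and control was the reverse (2110.4 to 2419.9, 2565 to 3129.8 and 2591 to 2899.7). Skeletal muscle markers (4 of 4, with 2 at a mean of at least 1 FPKM) summed to 2.79 to 4.18, 0.845 to 10.53 and 1.24 to 14.1 FPKM (scaled 2.27 to 2.62, 0.870 to 14.8 and 1.62 to 18.4).

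Bpifa1 (chromosome 2, 154142880 to 154149219), the short-form surface-active protein, had 5487, 4497 and 3491 FPKM in papain+MSC-Exos, 3869, 2656 and 4447 FPKM in papain, and 2539.9, 1833 and 3272 FPKM in control libraries. As deposited, the papain+MSC-Exos libraries all lay above the control libraries, and the papain libraries overlapped both. The log2 change for papain+MSC-Exos against control was 0.83 ± 0.25 (limma, adjusted p = 0.00540), close to the median of 0.76 for all genes, 0.68 after quantile normalization (adjusted p = 0.0694), and -0.13 ± 0.24 after scaling (adjusted p = 0.723). For papain against control it was 0.53 ± 0.25 (adjusted p = 0.294) as deposited and 0.29 ± 0.24 scaled (adjusted p = 0.486). Between papain+MSC-Exos and papain it was 0.30 ± 0.25 (adjusted p = 0.276) and, scaled, -0.41 ± 0.24 (adjusted p = 0.216). After scaling the means of Bpifa1 were 2977 ± 163, 3979.7 ± 522 and 3334 ± 937 FPKM in papain+MSC-Exos, papain and control (SD, n = 3 each), with the papain+MSC-Exos libraries inside the control range. The scaled papain+MSC-Exos libraries (2818 to 3144 FPKM) all lay below the papain libraries (3620 to 4579 FPKM), a difference that did not pass the test.

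Bpifa2 and Bpifb2 were low. Bpifa2, the parotid secretory protein, averaged 1.45 ± 0.386 FPKM in papain+MSC-Exos, 1.22 ± 0.459 in papain and 0.811 ± 0.225 in control libraries (SD, n = 3 each). Its single libraries were at 1.87, 1.39 and 1.11 FPKM in papain+MSC-Exos, at 1.56, 0.702 and 1.41 in papain, and at 0.701, 1.07 and 0.662 in control. It passed for papain+MSC-Exos against control as deposited (log2 change 0.43 ± 0.19, adjusted p = 0.0389), and the call was lost without control library 1 or 3 or papain+MSC-Exos library 1 or 2 (adjusted p = 0.0675 to 0.163), when low genes were kept in (adjusted p = 0.0723) and after scaling (-0.06 ± 0.13, adjusted p = 0.734). Salivary gland markers (5 of 7 above 0) summed to 9.13 to 24.3 FPKM in papain+MSC-Exos, 8.93 to 11.5 in papain and 6.96 to 7.75 in control libraries (scaled 5.88 to 13.9, 8.36 to 16.1 and 9.09 to 10.2), and their part in the Bpifa2 value was not tested. Bpifb2 was listed at 0 in the control libraries and in papain libraries 1 and 2, at 0.0216 FPKM in papain library 3, and at 0.0302 to 0.0411 FPKM in papain+MSC-Exos. It was under the filter and was not tested.

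The pair Bpifb9a (chromosome 2, 154257854 to 154271245) and Bpifb9b (154307227 to 154320646) showed the opposite order of groups to Bpifb1 in the comparison with control. Bpifb9b had 24744, 24160.3 and 29272 FPKM in papain+MSC-Exos, 21124, 31799.8 and 26694 FPKM in papain, and 41608, 39589 and 40510.1 FPKM in control libraries. Bpifb9a had 12751, 12027 and 15376 FPKM in papain+MSC-Exos, 10916.5, 17373 and 13221 FPKM in papain, and 21968, 19322.5 and 18499.5 FPKM in control libraries. As deposited, all 6 treated libraries lay below all 3 control libraries for both genes, with papain library 2 nearest to control. After scaling this held for Bpifb9b only. Scaled Bpifb9a in papain library 2 (24464 FPKM) lay above control library 3 (24174 FPKM). Group means of Bpifb9b were 26059 ± 2798, 26539.5 ± 5339 and 40569 ± 1011 FPKM in papain+MSC-Exos, papain and control (SD, n = 3 each), and 18068 ± 5923, 30676 ± 12810.2 and 53088 ± 1272 FPKM after scaling. The pair took 7.01% ± 1.11 of the length-weighted FPKM, an estimate of its share of all fragments, in papain+MSC-Exos, 7.86% ± 1.91 in papain and 12.1% ± 0.469 in control libraries. Of the plain FPKM sum it took 7.07% ± 0.437, 5.53% ± 0.746 and 7.84% ± 0.440 in the same groups. On that share papain+MSC-Exos (6.73% to 7.57%) overlapped control (7.37% to 8.25%), and papain was lowest.

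For papain+MSC-Exos against control the log2 change of Bpifb9b was -0.64 ± 0.22 as deposited (limma, adjusted p = 0.0106) and -1.60 ± 0.44 scaled (adjusted p = 0.0250). That of Bpifb9a was -0.58 ± 0.22 (adjusted p = 0.0208) and -1.54 ± 0.40 scaled (adjusted p = 0.0217), and that of their sum -0.62 ± 0.22 (adjusted p = 0.0148) and -1.58 ± 0.48 scaled (adjusted p = 0.0368). The fall was not held by every scaling: with each library rescaled to a common sum the log2 changes of Bpifb9b and Bpifb9a were -0.17 and -0.10 (adjusted p = 0.456 and 0.661), and after quantile normalization they were 0.59 and 0.69 (adjusted p = 0.123 and 0.0843). In ranks within a library, which quantile normalization keeps, Bpifb9b had rank 3 to 6 in papain+MSC-Exos, rank 6 to 9 in papain and rank 6 in all control libraries. With no filter on low values neither gene passed on either scale (Bpifb9b adjusted p = 0.199 as deposited and 0.451 scaled, Bpifb9a 0.170 and 0.241). After scaling both genes lost the call without control library 1, 2 or 3 or papain+MSC-Exos library 1 or 2 (adjusted p = 0.0507 to 0.0905), and as deposited Bpifb9a lost it without control library 1 or papain+MSC-Exos library 1 or 2 (adjusted p = 0.0537 to 0.0959) and Bpifb9b without papain+MSC-Exos library 2 (adjusted p = 0.0568).

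The log2 changes of Bpifb9b and Bpifb9a in papain against control were -0.63 ± 0.22 and -0.55 ± 0.22 as deposited (adjusted p = 0.124 and 0.203), and -0.87 ± 0.44 and -0.79 ± 0.40 scaled (adjusted p = 0.241 and 0.249), so neither passed. Without papain library 2 both passed as deposited, at -0.77 and -0.73 (adjusted p = 0.0416 and 0.0446), and Bpifb9b also passed without papain+MSC-Exos library 3 (adjusted p = 0.0418). Between papain+MSC-Exos and papain they differed by -0.01 ± 0.22 and -0.03 ± 0.22 as deposited (adjusted p = 0.963 and 0.906) and by -0.73 ± 0.44 and -0.75 ± 0.40 scaled (adjusted p = 0.233 and 0.186). Gland acinar markers, all 8 of them in the table and 7 at a mean of at least 1 FPKM, summed to 44804 to 95871 FPKM in papain+MSC-Exos, 103728 to 126013 in papain and 123178 to 152654 in control libraries (scaled 25675 to 81504, 99863 to 177453 and 161479 to 199476). Unlike the pair as deposited, this sum separated papain+MSC-Exos from papain and overlapped between papain and control. The listed genes did not all follow the sum. In papain+MSC-Exos against control Obp1a, Obp2a and Mup4 were lower on both scales. Ltf was higher, at 2.08 ± 0.21 and, scaled, 1.13 ± 0.15 (limma, adjusted p = 1.97e-06 and 0.00169). Dmbt1 was called on neither scale (0.13 and, scaled, -0.81). The part of gland acinar cells in the result for the pair was not tested.

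The long forms Bpifb3, Bpifb4, Bpifb5 and Bpifb6, of which Bpifb6, Bpifb3 and Bpifb4 are direct neighbours, were each higher in papain+MSC-Exos than in papain libraries as deposited. In that deposited comparison 63.0% of all tested genes were called higher. Bpifb4 (chromosome 2, 153938212 to 153964101) had 569.6, 637 and 358 FPKM in papain+MSC-Exos, 334, 146 and 351 FPKM in papain, and 157, 201 and 143 FPKM in control libraries. The papain+MSC-Exos libraries all lay above both other groups, and papain library 2 lay with the controls. Its log2 change for papain+MSC-Exos against control was 1.61 ± 0.28 (limma, adjusted p = 1.68e-04) and 0.65 ± 0.21 scaled (adjusted p = 0.0475). The scaled call was lost without control library 1 or 3, papain library 1, or papain+MSC-Exos library 1 or 2 (adjusted p = 0.0517 to 0.149), and when low genes were kept in (adjusted p = 0.0862). Against papain it was 0.97 ± 0.28 (adjusted p = 0.00776), 0.72 after quantile normalization (adjusted p = 0.0772), 0.56 without papain library 2 (adjusted p = 0.0513), and 0.25 ± 0.21 scaled (adjusted p = 0.398). For papain against control it was 0.64 ± 0.28 (adjusted p = 0.263), 1.04 without papain library 2 (adjusted p = 0.00748), and 0.40 ± 0.21 scaled (adjusted p = 0.277).

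Bpifb3 (chromosome 2, 153918230 to 153932996), whose SE was the largest of the 9 tested members on both scales, had 327, 347 and 128 FPKM in papain+MSC-Exos, 157, 29.1 and 94.5 FPKM in papain, and 96.0, 195 and 108 FPKM in control libraries. Papain library 2 was the lowest and papain+MSC-Exos library 3 lay among the libraries of the other groups. The log2 change for papain+MSC-Exos against papain was 1.67 ± 0.44 (limma, adjusted p = 0.00421), smaller but still called without papain library 2 (adjusted p = 0.0326), not called with no filter on low values (adjusted p = 0.0501) or after quantile normalization (adjusted p = 0.0766), and 0.96 ± 0.45 scaled (adjusted p = 0.130). Against control it was 0.94 ± 0.44 (adjusted p = 0.0522) and -0.01 ± 0.45 scaled (adjusted p = 0.986), and for papain against control -0.73 ± 0.44 (adjusted p = 0.410) and -0.98 ± 0.45 scaled (adjusted p = 0.207). Against control the deposited value passed without control library 2, without papain library 1, 2 or 3, or without papain+MSC-Exos library 3 (adjusted p = 0.00336 to 0.0470). Leaving out papain library 1 also brought a call for papain against control, at -1.25 as deposited (adjusted p = 0.0393). The same omission brought one for papain+MSC-Exos against papain in the scaled values, at 1.36 (adjusted p = 0.0431). The olfactory neuron markers, all 7 above 0, summed to 1213, 1463 and 604 FPKM in papain+MSC-Exos libraries 1 to 3, 488, 179 and 321 in papain libraries 1 to 3, and 492, 555 and 451 in control libraries 1 to 3 (scaled ranges 513 to 917, 252 to 457 and 589.9 to 727). As deposited, papain library 2 was the lowest for this sum, for Bpifb3 and for its neighbour Bpifb6 (89.9 FPKM). The vomeronasal markers (4 of 4) summed to 62.6 to 102 FPKM in papain+MSC-Exos, 25.6 to 43.9 in papain and 29.0 to 34.6 in control libraries (scaled 50.1 to 58.4, 36.0 to 41.1 and 37.9 to 45.3). Only 2 of these markers had a mean of at least 1 FPKM, and the vomeronasal channel gene Trpc2 had a mean of 0.529 FPKM. The part of these cells in the results for Bpifb3 and Bpifb6 was not tested.

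Bpifb5 (chromosome 2, 154223742 to 154240902) had 395, 325 and 316 FPKM in papain+MSC-Exos, 140.4, 194 and 204 FPKM in papain, and 163, 184 and 245 FPKM in control libraries. The papain+MSC-Exos libraries lay above both other groups, which overlapped. Its log2 changes as deposited were 0.95 ± 0.21 against papain (limma, adjusted p = 0.00165) and 0.82 ± 0.21 against control (adjusted p = 0.00184), and in the scaled values 0.24 ± 0.25 and -0.14 ± 0.25 (adjusted p = 0.507 and 0.711), and quantile normalization ended the call against control (0.18, adjusted p = 0.533). Bpifb6 (chromosome 2, 153900388 to 153912795) had 207, 284 and 198 FPKM in papain+MSC-Exos, 219, 89.9 and 161 FPKM in papain, and 141, 211 and 148 FPKM in control libraries, and the groups overlapped. It passed for papain+MSC-Exos against papain as deposited (0.62 ± 0.26, adjusted p = 0.0462), which was lost without papain library 2 or 3 or papain+MSC-Exos library 1 or 2 (adjusted p = 0.0555 to 0.307), when low genes were kept in (adjusted p = 0.129) or after quantile normalization (adjusted p = 0.519), and its scaled value was -0.09 ± 0.22 (adjusted p = 0.785). Against control Bpifb6 changed by 0.46 ± 0.26 (adjusted p = 0.105) and, scaled, by -0.49 ± 0.22 (adjusted p = 0.126). Without control library 2 or papain library 1 or 2 the deposited value passed (adjusted p = 0.0330 to 0.0490). For papain against control neither gene passed: the values were -0.13 ± 0.21 for Bpifb5 and -0.16 ± 0.26 for Bpifb6 (adjusted p = 0.756 and 0.774), and scaled -0.38 ± 0.25 and -0.40 ± 0.22 (adjusted p = 0.383 and 0.296).

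Counted over the family, 5 of the 9 tested members were higher and 0 lower for papain+MSC-Exos against papain as deposited, where 63.7% of all tested genes were called, 63.0% higher and 0.730% lower. After scaling 0 of 9 were called by limma, where 29.5% of all genes were (13.4% higher and 16.2% lower), and none of the 9 had an unadjusted p under 0.05. For papain+MSC-Exos against control 5 members were higher and 2 lower as deposited, where 84.8% of all genes were called, 84.3% higher and 0.526% lower. After scaling 2 were higher (Bpifb1 and Bpifb4) and 2 lower (the pair), where 27.9% of all genes were called, 12.3% higher and 15.6% lower. Median log2 changes of the tested members as deposited were -0.13 for papain against control, 0.62 for papain+MSC-Exos against papain and 0.82 for papain+MSC-Exos against control, beside 0.19, 0.56 and 0.76 for all tested genes. After scaling they were -0.38, -0.09 and -0.13.

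**Figure D3:**
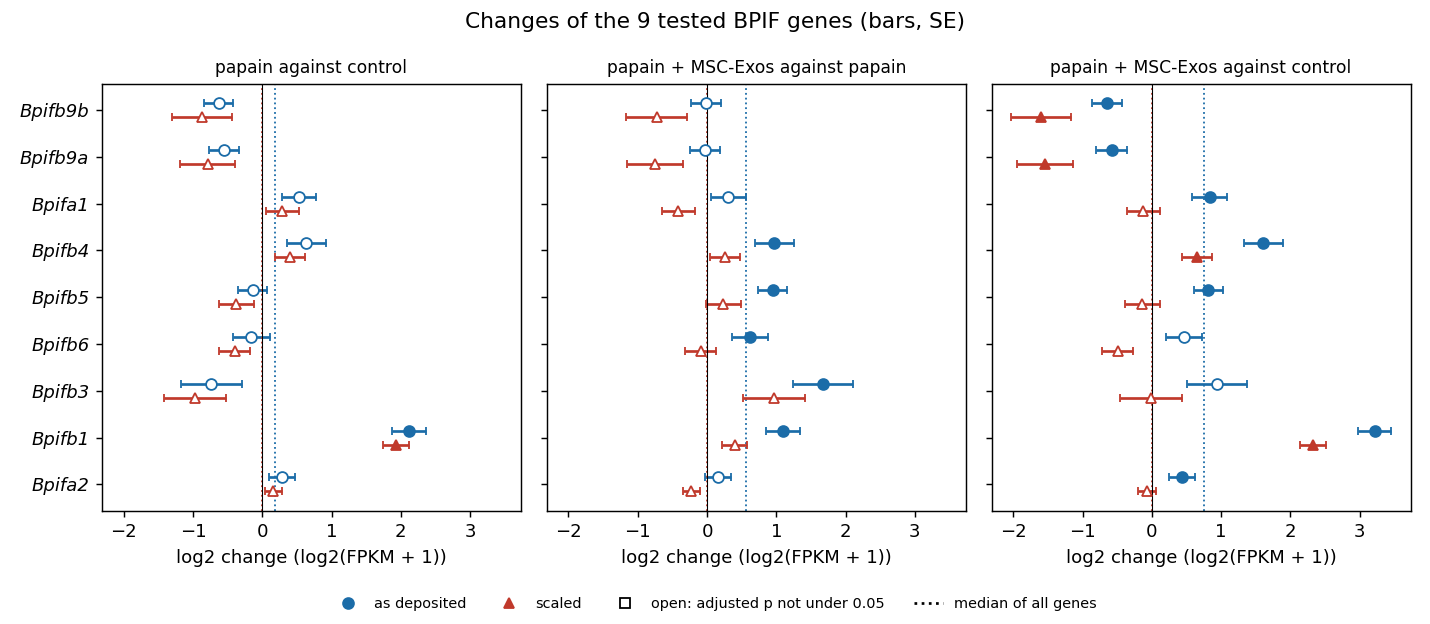
Log2 change (of log2(FPKM + 1), bars showing the SE) of the 9 tested members in the 3 comparisons, as deposited (circles) and scaled (triangles), with filled symbols for an adjusted p under 0.05 and dotted lines at the median of all tested genes. Bpifb1 stands to the right in both comparisons with control and the pair to the left in papain+MSC-Exos against control, a direction that quantile normalization (not drawn) turned to 0.59 and 0.69, while Bpifa1 and Bpifb5 as deposited lie near the median of all genes in the right panel.

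Ratios of members within a library do not depend on its scale, and were chosen after the values had been seen. Groups of 3 cannot give an exact permutation p below 0.1, so no test is given for them. The ratio of Bpifb9b to Bpifb9a was 1.95 ± 0.0533 in papain+MSC-Exos, 1.93 ± 0.0945 in papain and 2.04 ± 0.148 in control libraries (SD, n = 3 each), with all 9 libraries between 1.83 and 2.19. The ratio overlapped between all groups, and how shared reads were divided may bear on it. Bpifb1 per 1000 FPKM of the pair was 1.51 ± 0.772, 0.640 ± 0.177 and 0.0816 ± 0.00725 in papain+MSC-Exos, papain and control libraries. These groups did not overlap, and the lowest papain+MSC-Exos library (0.813, library 3) lay just above the highest papain library (0.781, library 1).

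Bpifa1 per 1000 FPKM of the pair was 116 ± 34.8 in papain+MSC-Exos, 95.4 ± 36.1 in papain and 42.2 ± 12.3 in control libraries, with papain library 2 (54.0) inside the control range of 31.1 to 55.5. Bpifb5 per 1000 FPKM of the pair was 8.87 ± 1.73, 4.48 ± 0.591 and 3.29 ± 0.803 in the same order of groups, and the lowest papain+MSC-Exos library (7.08) lay above the highest of the rest (5.12). In papain+MSC-Exos against control as deposited, the median log2 change of all tested genes was 0.76 and that of the pair's sum -0.62. Bpifa1 (0.83) and Bpifb5 (0.82) lay near that median, so their higher ratios to the pair than in control do not set them apart from most genes. Among the neighbours, the ratio of Bpifb4 to Bpifb6 was 2.27 ± 0.473 in papain+MSC-Exos, 1.78 ± 0.349 in papain and 1.01 ± 0.0868 in control libraries. All 6 treated libraries (1.53 to 2.75) lay above the controls (0.955 to 1.11), including papain library 2 at 1.63. The ratio of Bpifb3 to Bpifb6 was 1.15 ± 0.471, 0.541 ± 0.200 and 0.778 ± 0.130, and overlapped between all groups. Bpifb1 per 1000 FPKM of Bpifa1 was 12.5 ± 3.06, 6.96 ± 1.04 and 2.06 ± 0.645 and did not overlap between groups.

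**Figure D4:**
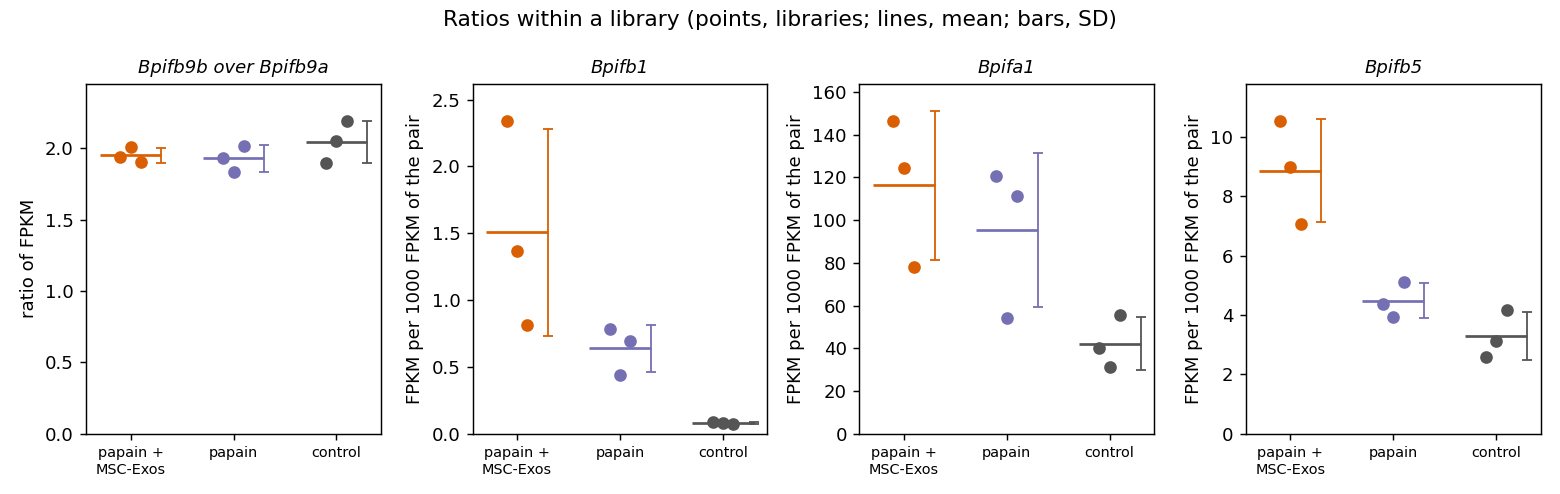
Ratios within a library for papain+MSC-Exos, papain and control (points, 3 libraries each, with the mean as a line and the SD as a bar): Bpifb9b over Bpifb9a, and Bpifb1, Bpifa1 and Bpifb5 per 1000 FPKM of the pair. The first ratio stays between 1.83 and 2.19 in all libraries, and Bpifb1 per 1000 FPKM of the pair separates the 3 groups.

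Of the 7 relatives listed beside the members (Bpi, Lbp, Pltp, Bpifa3, Bpifa5, Bpifa6 and Bpifc), all were in the table and 2 were tested. Lbp, which carries lipopolysaccharide to CD14, averaged 25.9 ± 6.36 FPKM in papain+MSC-Exos, 16.8 ± 3.53 in papain and 6.89 ± 1.03 in control libraries (SD, n = 3 each). It passed against control on both scales, at 1.75 ± 0.21 and, scaled, 0.86 ± 0.11 for papain+MSC-Exos (limma, adjusted p = 9.81e-06 and 0.00170) and at 1.16 ± 0.21 and 0.96 ± 0.11 for papain (adjusted p = 0.00234 and 0.00109). Between papain+MSC-Exos and papain it passed as deposited (0.59 ± 0.21, adjusted p = 0.0226), with -0.10 ± 0.11 scaled (adjusted p = 0.545). Pltp, the phospholipid transfer protein, averaged 21.2 ± 4.59, 10.7 ± 0.945 and 9.44 ± 1.25 FPKM in papain+MSC-Exos, papain and control libraries. It passed in papain+MSC-Exos against both other groups as deposited (0.91 ± 0.19 against papain and 1.08 ± 0.19 against control, adjusted p = 0.00135 and 1.81e-04) and in no scaled comparison (adjusted p = 0.314 to 0.875). Bpi, the neutrophil protein that names the family, was above 0 in 1 library only, papain+MSC-Exos library 2 (0.0209 FPKM), and Bpifa3, Bpifa5, Bpifa6 and Bpifc had means of 0.0320, 0.0671, 0.188 and 0.131 FPKM.

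Set beside other secreted products of nasal glands and airway epithelium, 36 of 38 listed genes were in the table and 32 were tested. For papain against control 14 were higher and 2 lower as deposited (13 and 1 scaled), beside 3.01% and 0.518% of all genes (5.77% and 4.15% scaled), with a median log2 change of 0.47 beside 0.19 for all genes. Those of smallest p as deposited were the lectin Itln1 (log2 change 3.54 ± 0.22, limma, adjusted p = 1.10e-09), the siderophore-binding Lcn2 (3.84 ± 0.30, adjusted p = 5.50e-08) and the mucin Muc5ac (2.53 ± 0.28, adjusted p = 7.64e-06). For papain+MSC-Exos against papain 9 were higher and 8 lower (4 and 9 scaled), beside 63.0% and 0.730% of all genes (13.4% and 16.2% scaled), with medians of 0.14, beside 0.56 for all genes, and -0.55 scaled. For papain+MSC-Exos against control 18 were higher and 9 lower (14 and 11 scaled), beside 84.3% and 0.526% of all genes (12.3% and 15.6% scaled), with medians of 0.68, beside 0.76 for all genes, and -0.24 scaled. The odorant-binding proteins Obp1a and Obp1b, the highest of the list by mean, were lower in that comparison, at -0.98 ± 0.27 and -1.14 ± 0.28 (adjusted p = 0.00288 and 0.00144), and at -1.94 ± 0.59 and -2.10 ± 0.59 scaled (adjusted p = 0.0353 and 0.0281), the direction of the pair on these 2 scales, which quantile normalization turned for the pair. The other deposited comparisons were unlike the pair. Against papain, Obp1a and Obp1b were lower in papain+MSC-Exos, at -0.88 and -1.02 (limma, adjusted p = 0.00935 and 0.00556), where the pair's sum changed by -0.02. For papain against control they changed by -0.10 and -0.12, where the pair's sum changed by -0.60.

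Genes whose scaled levels followed a member closely over the 9 libraries are named as a description. They had the highest Pearson correlations of log2(scaled FPKM + 1) among tested genes outside the members. Genes without a symbol and those with names of Gm or Rik form were left out. Those of Bpifb1 were the iron-binding protein Ltf (r = 0.991), the polymeric immunoglobulin receptor Pigr (0.987) and complement C3 (0.986), each of them a host-defence product. Those of Bpifb9b were Fabp4 (0.989), Oxct1 (0.987) and Pnliprp1 (0.987), and those of Bpifb9a were Derl3 (0.988), Oxct1 (0.987) and Mpc2 (0.985). Bpifb4 was nearest to Tyro3, Prdm4 and Dapp1 (0.952 to 0.936), Bpifb5 to Plet1, Mthfsd and Ccdc189 (0.947 to 0.927), Bpifb3 to Hdac6, Sema6a and Srrm4 (0.979 to 0.974), Bpifb6 to Usp33, Frzb and Ift80 (0.957 to 0.943) and Bpifa1 to Rictor, Larp4b and Nup153 (0.958 to 0.932). Among the members themselves Bpifb9a and Bpifb9b had r = 0.995, Bpifb4 had -0.853 with Bpifb9b, and Bpifb1 had -0.819 with Bpifb9b and 0.0568 with Bpifa1. All of these points share the libraries, the 3 groups and the scaling factors.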

How the data were processed

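The values analysed are gene FPKM as the authors deposited them, in 1 table of 21930 Ensembl IDs for 9 nasal mucosa libraries, 3 a group. Per the submitters' processing notes the tools were fastp 0.19.4, HISAT2 and StringTie on mm10. No source used here gives the annotation, the strand setting or the handling of shared reads. There were 0 unused sample columns. Symbols came from GENCODE M21, which gave 21817 of the IDs a name, and promoter sequences from RefSeq (GRCm38.p6).

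Log2(FPKM + 1) was fitted with limma 3.58.1 (R 4.3.3) with a mean-variance trend on all 9 libraries, over genes with at least 1 FPKM in at least 3 libraries (12738 as deposited, 12507 scaled), and p-values were adjusted by Benjamini-Hochberg over all of them, with a call at 0.05. Fold changes on this scale understate the change of low genes. Scaled values were divided by median-of-ratios factors from 16486 genes above 0 in every library. The FPKM were not counts: 18.8% to 23.1% of low values per library lay within 5% of a whole multiple of the estimated value of 1 fragment, where 10% would by even spread, so reads were not recovered, no count test was run, and depths are rough. The depths came from a search for the value of 1 fragment, in FPKM times kb, between 0.03 and 0.08 only. This window was taken from an earlier description of these data, and it bounds the depths that could be found. Libraries had Spearman correlations of 0.979 to 0.988 within groups and 0.966 to 0.980 between groups. Scripts used Python 3.11.15, NumPy 2.4.6, pandas 2.3.3, Biopython 1.88 and matplotlib 3.10.9, and the limma step was tested on simulated data. There, recovery of the smaller change built into the data missed the first requirement in papain against control, and the requirement was then set on the larger change and on false calls.

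The members, the gene lists and the tests were chosen with earlier results of these data known, and the ratios and motifs after values and sequences had been seen. The text names every member, relatives with a mean of at least 1 FPKM, and secreted genes of smallest p or highest mean. For each member with a mean of at least 10 FPKM it names the 3 genes most correlated with it. That choice left out members, genes without a symbol and names of Gm or Rik form. Marker lists cover olfactory, sustentacular, ciliated, goblet and club, gland, basal, salivary, vomeronasal, muscle and leukocyte genes. Alternatives changed the pseudocount, filter, scaling, samples in the fit, block, trend, weights and threshold, and left out each library in turn.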

Additional observations from a re-analysis of the deposited data

How the results depend on the processing

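Of 966 values of single members under an alternative, 844 kept direction and side of the threshold, 54 lost a call, 34 gained one and 34 changed sign. A call was involved in 4 of the sign changes, all after quantile normalization: Bpifb9b for papain+MSC-Exos against papain (0.86, adjusted p = 0.0375) and, for papain+MSC-Exos against control, Bpifb9b (0.59), Bpifb9a (0.69) and Bpifa2 (-0.075, adjusted p = 0.679). The others were not called on either side. Quantile normalization turned Bpifb6 for papain+MSC-Exos against control (-0.21), Bpifa2 (-0.24) and Bpifb9a (0.58) for papain+MSC-Exos against papain, and Bpifb9a for papain against control (0.12). Rescaling to a common sum turned Bpifb9b (0.37) and Bpifb9a (0.35) for papain+MSC-Exos against papain. Array weights turned Bpifa2 for papain+MSC-Exos against papain (-0.013), Bpifb5 (0.031) and Bpifb6 (0.027) for papain against control, and scaled Bpifb3 for papain+MSC-Exos against control (0.26). Leaving out each library in turn gave ranges across 0, as deposited, for Bpifb9b (-0.17 to 0.13), Bpifb9a (-0.19 to 0.15) and Bpifa2 (-0.030 to 0.27) in papain+MSC-Exos against papain and for Bpifb5 (-0.26 to 0.032) and Bpifb6 (-0.44 to 0.19) in papain against control. The scaled ranges across 0 were those of Bpifa1 (-0.34 to 0.075), Bpifa2 (-0.13 to 0.051), Bpifb3 (-0.22 to 0.30) and Bpifb5 (-0.26 to 0.027) in papain+MSC-Exos against control, and of Bpifb5 (-0.055 to 0.48) and Bpifb6 (-0.27 to 0.085) in papain+MSC-Exos against papain. The causes were not tested. Counts of members called follow, each with the share of all genes called. As deposited, papain+MSC-Exos against control had 7 (84.8%), 5 with no filter (61.3%), 2 after quantile normalization (26.3%), 2 with a log2 change of at least 1 required (22.6%) and 4 to 9 without 1 library (72.9% to 90.2%). Papain+MSC-Exos against papain had 5 (63.7%), 3 with no filter (42.4%), 2 after quantile normalization (27.5%), 2 with the log2 requirement (9.04%) and 3 to 5 without 1 library (39.8% to 77.0%). Papain against control had 1 (3.52%), 7 with array weights (76.5%) and 1 to 4 without 1 library (1.48% to 13.4%). After scaling, papain+MSC-Exos against control had 4 (27.9%), 1 with no filter (14.4%) and 1 to 4 without 1 library (12.1% to 30.1%). Scaled papain+MSC-Exos against papain had 0 (29.5%), 2 with array weights (44.5%) and 0 to 1 without 1 library (14.4% to 31.2%), and papain against control 1 (9.92%), 2 with array weights (19.2%) and 1 without each library in turn (4.45% to 11.1%). Some array-weight fits stopped before reaching their tolerance, so their values are uncertain. No pairing by replicate number was seen: same-numbered libraries of different groups had correlations of their deviations of -0.312 to 0.141, and others -0.408 to 0.402. With 3 libraries a group a weak pairing could be missed. With the replicate number as a block the counts for papain+MSC-Exos against control, papain+MSC-Exos against papain and papain against control were 8 (83.9%), 5 (62.2%) and 1 (3.90%) as deposited, and 3 (21.8%), 0 (24.7%) and 1 (7.28%) scaled. The block brought a call for Bpifb3 as deposited (adjusted p = 0.0291) and ended that of Bpifb4 scaled (adjusted p = 0.0891), both in papain+MSC-Exos against control. Depth is known only roughly, so no count limit is given for Bpifb2 or other genes listed at 0.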
